A study of Mus musculus with 6 samples.

Results

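The 10 genes described here encode cytosolic sensors of nucleic acid, their adaptors and the effectors that act on the same RNA. They are Ddx58, Ifih1, Dhx58, Ddx60, Cgas, Zbp1, Mavs, Sting1, Eif2ak2 and Adar. They were chosen by name, with earlier results of these data known, and the array carries 19 probes for them among its 56605 probes. All 19 probes lay well above background on every array, so all 10 genes were among the 19500 genes tested. The array's design lists Cgas as Mb21d1 and Sting1 as Tmem173.

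RNA came from bone marrow monocytes of C57BL/6J mice aged 6 to 8 weeks, purified by magnetic sorting and kept in culture for 60 h. All cultures received M-CSF (20 ng/mL), on which monocytes mature into macrophages. The IFN-beta group (3 arrays) was also given IFN-beta (100 U), which is a type I interferon, and the control group (3 arrays) received M-CSF alone. Each sample was hybridised to a 1-colour Agilent array. Nothing in the labels ties each replicate to its own mouse or culture, and p-values therefore measure only the spread between these samples.

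Nucleic acid in the cytosol is a sign of infection or of damage. RIG-I, the product of Ddx58, and MDA5, the product of Ifih1, bind viral RNA and signal through MAVS on mitochondria. The enzyme cGAS binds DNA and makes a cyclic dinucleotide that activates STING on the endoplasmic reticulum. Both routes lead to the production of type I interferon, which in turn acts on cells through its receptor and the transcription complex ISGF3. ISGF3 binds repeats of GAAA in the promoters of interferon-stimulated genes, and many sensor genes are themselves interferon-stimulated.

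The promoters are shown first because their GAAA repeats are the known type of site through which interferon acts. RefSeq promoter windows, from 250 bases before to 50 bases after an annotated start (GRCm38.p6), were held for 7 of the 10 genes. The windows of Dhx58, Zbp1 and Sting1 were not used here. The motifs searched on both strands were GAAANGAAA (spacing of 1 base) and the same repeat with a spacing of 2 bases, and 5 of the 7 genes had a match to at least 1 of them. In windows, 5 of 9 had a match, against 6.27% of all 32851 windows (7.27% of all genes with a window). The genes were chosen by name with their response known, so the match count is a description.

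The bases before the start are given for Ddx60 (chr8:61927837-61928086, plus strand) and Ddx58 (chr4:40239826-40240075, minus strand), with each match to a GAAA repeat in capitals.
Ddx60: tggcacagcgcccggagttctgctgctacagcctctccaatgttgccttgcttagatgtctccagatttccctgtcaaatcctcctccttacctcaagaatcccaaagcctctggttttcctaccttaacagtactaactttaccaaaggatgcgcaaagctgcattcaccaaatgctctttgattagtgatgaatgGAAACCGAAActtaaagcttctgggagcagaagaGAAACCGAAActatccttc
Ddx58: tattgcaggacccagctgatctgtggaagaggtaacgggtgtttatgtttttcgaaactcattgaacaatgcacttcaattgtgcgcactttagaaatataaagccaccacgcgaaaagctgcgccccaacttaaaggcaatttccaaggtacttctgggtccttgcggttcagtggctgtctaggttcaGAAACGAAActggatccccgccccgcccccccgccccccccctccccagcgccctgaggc
Ddx60 has 2 repeats with a spacing of 2 bases, at bases -53 to -44 and -19 to -10 from the start. Ddx58 has GAAANGAAA at bases -60 to -52, and a repeat with a spacing of 2 bases on the opposite strand at bases 3 to 12 after the start.

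In Ifih1 (chr2:62646206-62646235, minus strand), Eif2ak2 (chr17:78882535-78882564, minus strand) and the third annotated start of Adar (chr3:89730735-89730764, plus strand) the match lies just after the start, and 30 bases around it are shown.
Ifih1: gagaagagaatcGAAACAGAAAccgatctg
Eif2ak2: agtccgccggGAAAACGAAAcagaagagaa
Adar: gccttttcaagGAAACGAAAgtgaactctg
The matches start at base 33 in Ifih1, base 19 in Eif2ak2 and base 29 in Adar. The windows of the 2 other annotated starts of Adar held no match.

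The windows of Mavs (chr2:131233813-131234062, plus strand) and Cgas (chr9:78443238-78443487, minus strand) held neither repeat, and the bases before the start are given for comparison.
Mavs: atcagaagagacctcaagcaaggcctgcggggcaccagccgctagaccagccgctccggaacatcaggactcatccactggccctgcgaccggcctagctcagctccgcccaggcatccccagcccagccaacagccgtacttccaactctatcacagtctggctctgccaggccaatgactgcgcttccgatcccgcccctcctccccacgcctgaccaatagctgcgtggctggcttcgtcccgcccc
Cgas: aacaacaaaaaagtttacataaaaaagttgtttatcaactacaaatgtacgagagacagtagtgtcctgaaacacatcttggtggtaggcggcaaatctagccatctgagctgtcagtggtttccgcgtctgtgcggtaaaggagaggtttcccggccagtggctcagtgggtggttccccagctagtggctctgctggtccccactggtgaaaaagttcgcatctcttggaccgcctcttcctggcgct
The palindrome TTCNNNGAA, to which STAT dimers bind, was found in the windows of Eif2ak2 (bases -178 to -170) and of the third start of Adar (bases 23 to 31, overlapping the GAAA repeat). It is present in 8.30% of all windows. Of the 2 genes without a GAAA repeat, Cgas rose 3.52-fold with IFN-beta and Mavs was not called. The genes with a match rose between 3.13-fold (Eif2ak2) and 17.1-fold (Ddx60). A link between a match and the response was not tested.

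**Figure D1:**
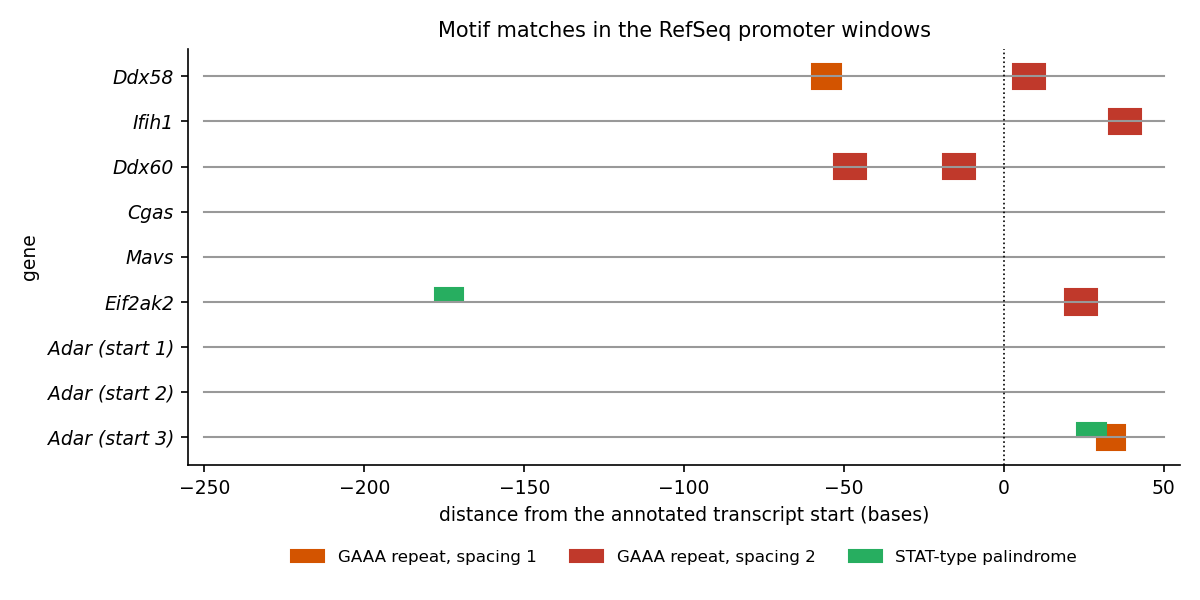
Motif matches in the RefSeq promoter windows of 7 genes, 9 annotated starts in all, by distance in bases from the annotated start. Orange and red boxes are GAAA repeats with a spacing of 1 and 2 bases and green boxes are STAT-type palindromes; the windows of Mavs and Cgas hold no box.

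With IFN-beta, 9 of the 10 genes rose and 1, Mavs, was not called. The rises ran from 1.77-fold for Sting1 to 19.7-fold for Zbp1. The median log2 fold change of the 10 genes was 2.21, against 0.10 for all genes tested. Over all genes 11.8% were called higher at an adjusted p under 0.05 (limma with Benjamini-Hochberg adjustment over 19500 genes), and 8.03% lower, 19.8% in all. IFN-beta and control arrays did not overlap for any of the 10 genes, and did not overlap for 40.2% of all genes (23.4% with IFN-beta higher).

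Control 3 stood apart from the other controls. Of 17 fibroblast markers, 9 to 10 were above background on the IFN-beta arrays and 9 to 17 on controls. Their summed signal was between 1.66 and 1.86 on the IFN-beta arrays, 9.08 and 9.30 on controls 1 and 2, and 0.47 on control 3 (log2 of the sum, relative to the array's 75th percentile). Controls 1 and 2 were close to each other (r = 0.994 across genes, which are not independent replicates), and control 3 had r = 0.957 and 0.956 with them. With IFN-beta arrays 1, 2 and 3 control 3 had r = 0.9655, 0.9635 and 0.9653. The spread of gene differences (scaled median absolute deviation, log2) ranked the other way. For control 3 it was 0.33 and 0.35 with controls 1 and 2, and 0.47 to 0.51 with the IFN-beta arrays. All 12 monocyte and macrophage markers were above background on every array. Their summed levels were 10.25 to 10.29 with IFN-beta and 9.41 to 9.99 in controls, but single markers went both ways. Fcgr1, Ly6c2 and Spi1 were higher on every IFN-beta array than on every control, and Itgam, Mertk, Cx3cr1, Ccr2 and Cd14 were lower. Basophil and mast cell markers (6 of 6 above background on every array) had summed levels of 5.86 to 6.41 with IFN-beta and 2.48 to 3.28 in controls. Neutrophil markers (9 of 9) had 9.69 to 9.98 with IFN-beta and 8.84 to 9.23 in controls. T cell markers (5 to 6 of 6 above background) had 1.84 to 2.20 with IFN-beta and 1.25 to 1.58 in controls. Of these, Cd5 and Cd2 were higher on every IFN-beta array than on every control, and the groups overlapped for Cd3e, Cd3d, Cd3g and Lck. NK cell markers (1 to 2 of 5 with IFN-beta, 2 to 3 in controls) had 0.18 to 0.75 with IFN-beta and -1.14 to -0.66 in controls. Here Klra8 was higher on every IFN-beta array than on every control and Klrb1c was lower. Ncr1 and Eomes were above background on no array. B cell markers (2 to 4 of 6 with IFN-beta, 3 to 5 in controls) had 1.34 to 1.499 and 1.63 to 1.86, respectively. No single B cell marker was lower on every IFN-beta array than on every control, and Ms4a1 was higher. Ebf1 stood at -0.07 and 0.07 on controls 1 and 2, and at -6.52 on control 3. Erythroid markers (0 to 1 of 6 with IFN-beta, 2 to 3 in controls) had -2.74 to -2.19 and -2.09 to 0.21. The erythroid marker Alas2 stood at -0.04 and -0.28 on controls 1 and 2, and at -6.61 on control 3. Plasmacytoid dendritic cell markers (6 of 6) had 5.42 to 5.67 with IFN-beta and 5.51 to 5.96 in controls. Among them Siglech was lower on every IFN-beta array than on every control, and Ccr9, Cox6a2, Klk1 and Spib were higher. In bulk RNA, fewer cells of a type and less RNA per cell cannot be told apart, and the part of other cells in the values below was not tested.

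All 10 genes were higher on control 3 than on controls 1 and 2, as were 73.8% of all genes. The gap had a median of 0.71 for the 10 genes and 0.35 for all genes (log2). For 9 of the 10 genes control 3 lay between the other controls and every IFN-beta array, as for 19.3% of all genes. Each response is therefore also given against control 3 alone, where the 1 control is assumed to vary like the IFN-beta arrays.

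Among the RNA sensors, Ddx58 stood at 5.45, 5.39 and 5.32 on IFN-beta arrays 1, 2 and 3, against 2.37, 2.36 and 2.93 on controls 1, 2 and 3 (log2 signal after subtracting the 75th percentile of the array, the scale of all levels below). Every IFN-beta array lay more than 2 log2 units above every control. The gene rose 7.13-fold, a log2 fold change of 2.83 ± 0.20 (SE, 3 arrays per group, limma adjusted p = 1.53e-04). Its product RIG-I is a helicase that recognises RNA with a free triphosphate end. Against control 3 alone the log2 fold change was 2.46 (adjusted p = 0.00214).

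Ifih1, whose product MDA5 binds long double-stranded RNA, stood at 3.51, 3.46 and 3.54 with IFN-beta, against 0.76, 0.65 and 1.37 in controls. It rose 5.98-fold (log2 fold change 2.58 ± 0.22, limma adjusted p = 3.43e-04), and by 2.14 against control 3. The IFN-beta arrays lay close together and control 3 lay above the other controls (SD 0.04 with IFN-beta and 0.39 in controls, n = 3 each).

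Dhx58 encodes LGP2, a relative of RIG-I without signalling domains that modulates RIG-I and MDA5. Its levels were 3.40, 3.12 and 3.24 with IFN-beta, against 0.41, 0.36 and 1.05 in controls. The rise was 6.28-fold (log2 fold change 2.65 ± 0.23, limma adjusted p = 3.52e-04), and 2.21 on the log2 scale against control 3. The 3 RIG-I-like receptor genes thus had log2 fold changes between 2.58 and 2.83, with overlapping 95% intervals.

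Ddx60, a helicase gene described as a cofactor of RIG-I-like receptors, stood at 1.52, 1.68 and 1.33 with IFN-beta, against -2.80, -2.91 and -2.04 in controls. It rose 17.1-fold (log2 fold change 4.09 ± 0.26, limma adjusted p = 1.05e-04). Only 0.272% of the genes tested had a higher log2 fold change. Against control 3 the value was 3.55 (adjusted p = 0.00112), and after normexp background correction 3.25.

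Zbp1 encodes a sensor of Z-form nucleic acid that can trigger necroptosis through RIPK3. Its levels were 5.38, 5.05 and 5.52 with IFN-beta, against 0.73, 0.68 and 1.63 in controls. The rise of 19.7-fold (log2 fold change 4.30 ± 0.28, limma adjusted p = 1.21e-04) was the highest of the 10 main probes. Of all genes tested 0.215% had a higher value. Against control 3 alone it was 3.69 (adjusted p = 0.00132).

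The DNA sensor gene Cgas stood at 3.79, 3.80 and 3.87 with IFN-beta, against 1.73, 1.75 and 2.54 in controls. It rose 3.52-fold (log2 fold change 1.82 ± 0.24, limma adjusted p = 0.00237). Control 3 lay 0.80 above the mean of controls 1 and 2, so that the rise was 1.28 against control 3 (adjusted p = 0.0144) and 2.08 against the other controls.

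The adaptors had the lowest fold changes of the 10 genes. Sting1, the gene of the receptor for the cGAS product, had levels of 3.91, 3.97 and 4.17 with IFN-beta, against 3.04, 3.03 and 3.52 in controls. It rose 1.77-fold (log2 fold change 0.82 ± 0.19, limma adjusted p = 0.0245). That call was lost when any array except control 3 was left out (adjusted p between 0.0512 and 0.111), and against control 3 alone the value was 0.50 (adjusted p = 0.217). With spike-in scaling it was 0.50 (adjusted p = 0.25), with slide as a block 0.71 (adjusted p = 0.222). Slide 2 held IFN-beta arrays only. Fold changes with slide as a block, here and below, therefore rest on IFN-beta 1 against the controls.

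Mavs, the mitochondrial adaptor gene of RIG-I and MDA5, stood at 1.92, 1.89 and 2.05 with IFN-beta, against 2.17, 2.16 and 2.41 in controls. Every IFN-beta array lay below every control, by a small margin. The log2 fold change was -0.29 (95% interval -0.67 to 0.08) and was not called (limma adjusted p = 0.228). Its value was negative in all 20 alternative settings run, from -0.62 with spike-in scaling to -0.21 without control 3, and it was called lower with array weights (-0.22, adjusted p = 0.0433).

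The genes of 2 effectors that bind double-stranded RNA also rose. Eif2ak2 encodes PKR, a kinase that halts translation by phosphorylating eIF2alpha. It stood at 2.52, 2.58 and 2.57 with IFN-beta, against 0.62, 0.69 and 1.41 in controls, a rise of 3.13-fold (log2 fold change 1.65 ± 0.23, limma adjusted p = 0.00316). Against control 3 it was 1.14 (adjusted p = 0.0207), and with slide as a block the call was lost (1.61, adjusted p = 0.0579).

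Adar encodes ADAR1, which edits adenosine to inosine in double-stranded RNA and so keeps self RNA from MDA5. Its levels were 3.32, 3.23 and 3.17 with IFN-beta, against 1.15, 1.13 and 1.93 in controls. It rose 3.56-fold (log2 fold change 1.83 ± 0.24, limma adjusted p = 0.00225), and by 1.31 against control 3 (adjusted p = 0.0146).

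**Figure D2:**
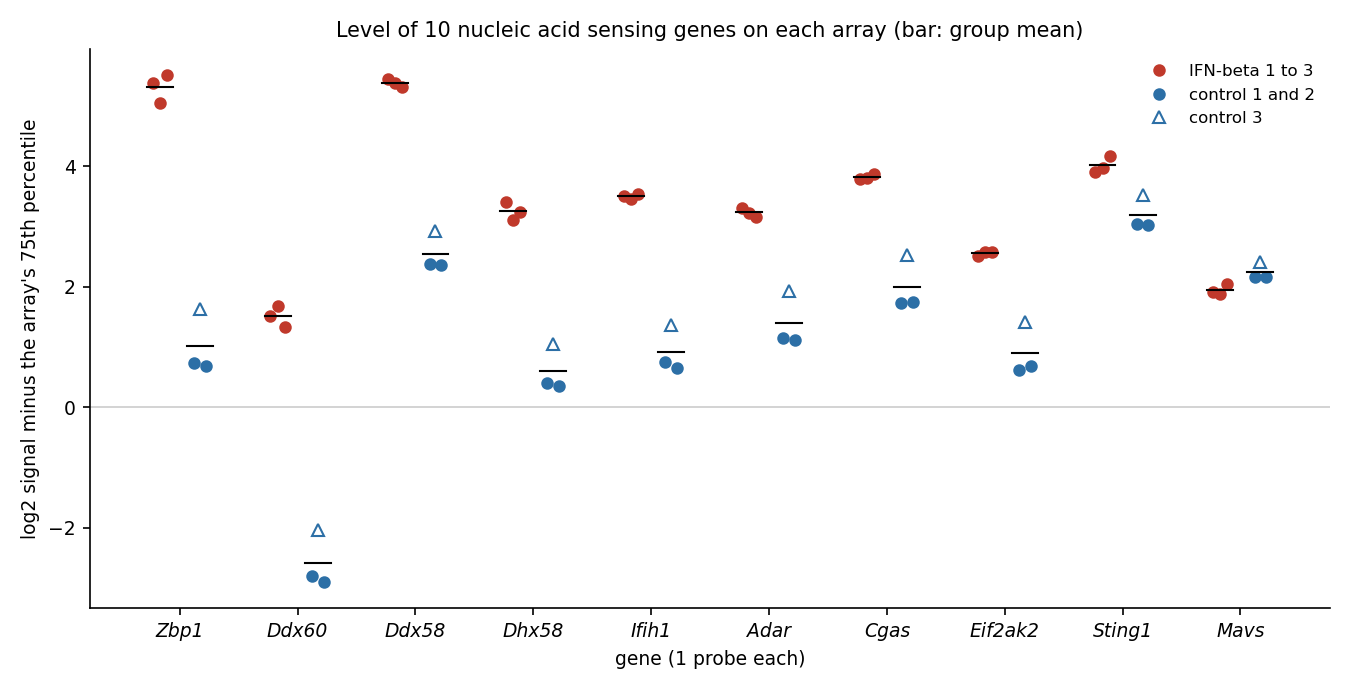
Level of each of the 10 genes (log2 signal relative to the 75th percentile of its array, y axis) on the 3 IFN-beta arrays (red, left) and the 3 controls (blue, right; triangle, control 3), with bars at group means. All genes but Mavs have every IFN-beta array above every control, and control 3 is the highest control for all 10.

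Ordered by log2 fold change the genes were Zbp1, Ddx60, Ddx58, Dhx58, Ifih1, Adar, Cgas, Eif2ak2, Sting1 and Mavs. The 95% intervals of neighbours overlapped except at 2 places. The interval of Ddx60 (3.50 to 4.69) lay above that of Ddx58 (2.37 to 3.30), and the interval of Sting1 (0.37 to 1.28) lay above that of Mavs (-0.67 to 0.08). Differences between the responses of 2 genes were not tested. Against controls 1 and 2 the log2 fold changes were 4.61 for Zbp1, 4.37 for Ddx60, 3.02 for Ddx58, 2.87 for Dhx58, 2.80 for Ifih1, 2.10 for Adar, 2.08 for Cgas, 1.90 for Eif2ak2, 0.98 for Sting1 and -0.21 for Mavs. These values and those against control 3 share the IFN-beta arrays.

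Against control 3 alone 8 of the 10 genes were called higher, where 5.22% of all genes were called higher and 4.34% lower (9.56% in all). Against controls 1 and 2 it was 9 of the 10, where 33.1% of all genes were called higher and 15.1% lower (48.2% in all). The median of the 10 genes was 1.72 and 2.45 in these comparisons, beside -0.10 and 0.22 for all genes.

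**Figure D3:**
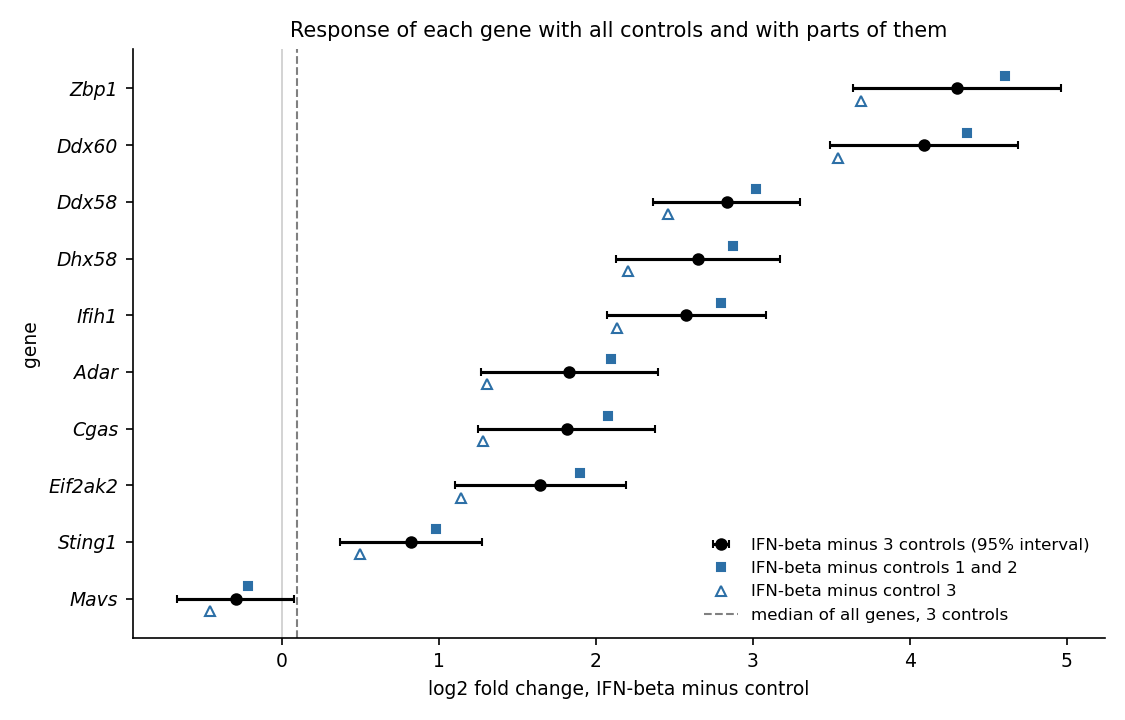
Log2 fold change of each gene, IFN-beta minus control (x axis), with all 3 controls (black, 95% interval), with controls 1 and 2 (squares) and with control 3 (triangles). The values against control 3 are lower for all 10 genes, and the dashed line marks the median of all genes, 0.10.

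Most genes had more than 1 probe, each matching another stretch of the transcript. Fitted over all 29794 probes tested, 18 of the 19 probes were called higher, where 13.7% of all probes were called higher and 7.82% lower (21.5% in all). No probe's groups overlapped, nor did those of 41% of all probes, and the probe that was not called was the single one of Mavs. The 4 probes of Ddx58 gave log2 fold changes from 2.83 for the probe nearest the transcript's end (chr4:40151893-40151952, mm9) to 3.12. The 2 probes of Ifih1 gave 2.58 (chr2:62435621-62435680) and 2.69, those of Ddx60 4.09 (chr8:64433328-64433387) and 3.92, those of Cgas 1.82 (chr9:78278381-78278440) and 1.79, and those of Adar 1.83 (chr3:89557158-89557217) and 1.97.

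The probes of Zbp1 and Dhx58 differed somewhat more. For Zbp1 the value was 4.30 ± 0.28 (chr2:173039307-173039366) and 4.78 ± 0.25 (chr2:173032258-173032317), and for Dhx58 2.65 ± 0.22 (chr11:100556271-100556330) and 2.24 ± 0.20 (chr11:100564085-100564144). Within each pair the 95% intervals overlapped. The array's design assigns the probes of a pair to different transcripts of the gene. It does so also for Ifih1, whose 2 probes gave 2.58 and 2.69. The second Dhx58 probe was the dimmest of the 19 probes, at -4.44, -4.36 and -4.01 on controls 1, 2 and 3. Mavs (chr2:131073675-131073734), Eif2ak2 (chr17:79253868-79253927) and Sting1 had 1 probe each, so no second stretch of these transcripts was measured.

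**Figure D4:**
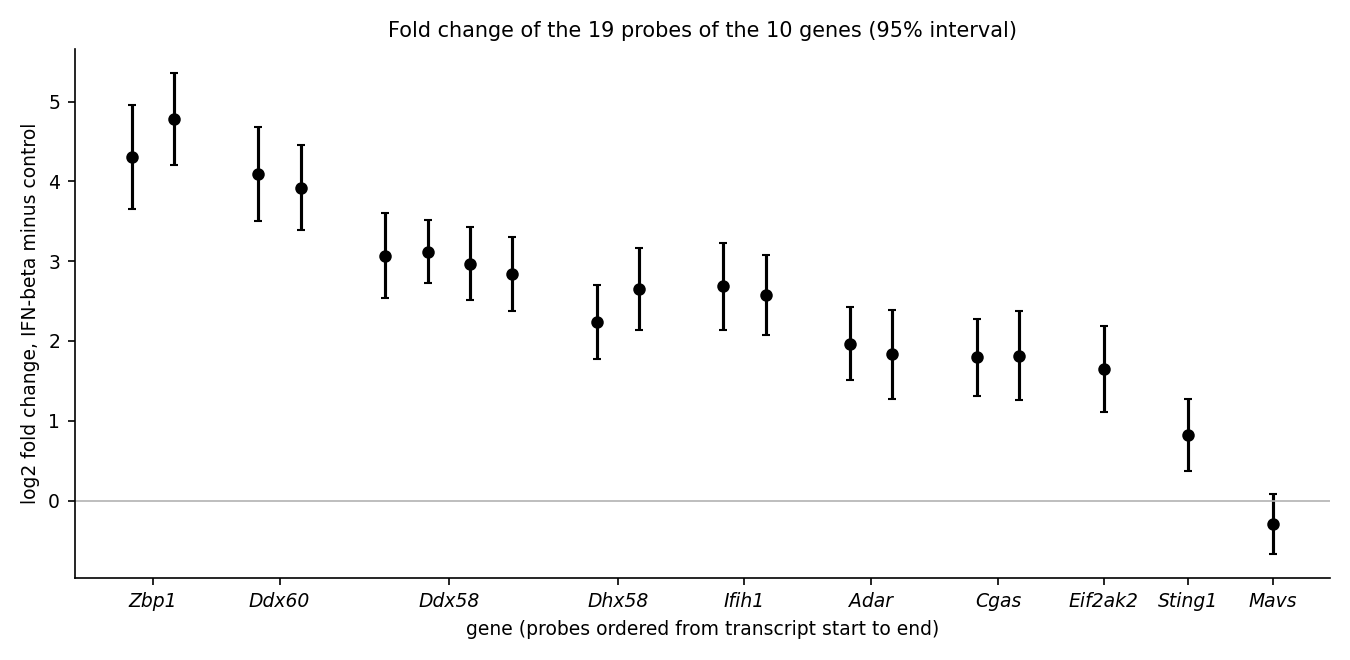
Log2 fold change of each of the 19 probes (y axis, IFN-beta minus control, with its 95% interval), grouped by gene and ordered from transcript start to end. Probes of 1 gene lie close together, from 2.83 to 3.12 for the 4 probes of Ddx58.

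Genes around these sensors were read from 5 lists, with 109 of 113 genes tested. The lists were chosen with earlier results of these data known, so their counts are a description. Of these, 27 rose and 5 fell (limma), and 77 were not called, where 11.8% of all genes were called higher and 8.03% lower. The medians of the lists lay between 0.23 and 0.54, beside 0.10 for all genes. With spike-in scaling, which put the median of all genes at -0.23, the list medians lay between -0.09 and 0.22. Without control 3, 53 genes rose and 9 fell, where 33.1% of all genes were called higher and 15.1% lower. Against control 3 alone 13 rose and 2 fell, where 5.22% of all genes were called higher and 4.34% lower.

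Of 25 cofactors of RNA sensors and other RNA-binding sensors, 9 rose and none fell (median 0.34), where 11.8% of all genes were called higher and 8.03% lower. The 4 with the lowest p were of the oligoadenylate synthetase family, whose active members make the messenger that switches on RNase L. Oasl1 rose by 4.50 ± 0.28, Oasl2 by 3.38 ± 0.25, Oas2 by 2.54 ± 0.24 and Oas1a by 2.33 ± 0.22 (log2 fold change ± SE, limma adjusted p from 9.49e-05 to 5.75e-04). Some members of this family are near-identical in parts, and whether a probe also matches a relative was not tested.

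Of 26 DNA sensors, STING regulators and nucleases, 5 rose and 2 fell (median 0.23), beside 11.8% higher and 8.03% lower of all genes. Ifi205 and Ifi204 encode DNA-binding proteins of the Ifi200 family and rose by 3.67 ± 0.27 and 2.22 ± 0.26, and they too have near-identical relatives. Trex1, the exonuclease that removes cytosolic DNA and so limits cGAS, stood at 6.18, 6.12 and 5.58 with IFN-beta, against 4.15, 4.17 and 4.68 in controls. It rose by 1.63 ± 0.24 (limma adjusted p = 0.00352), and by 1.28 against control 3 (adjusted p = 0.0512). Pld3, a lysosomal exonuclease gene, fell by 0.97 on the log2 scale (adjusted p = 0.00565, or 0.0595 with slide as a block). The second gene that fell was Lrrc8a, a subunit gene of the channel that passes the cGAS product between cells, named after its values were seen (log2 fold change -0.69, limma adjusted p = 0.0325). Its call was lost against control 3 (-0.51, adjusted p = 0.234), with slide as a block (adjusted p = 0.249) and when any array except control 3 was left out (adjusted p between 0.0639 and 0.135).

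Of 21 kinases, TRAFs and IRFs downstream of MAVS and STING, 3 rose and none fell (median 0.23), a share of higher genes near the 11.8% of all genes. Irf7, a transcription factor of interferon genes, rose by 4.32 ± 0.30 (limma adjusted p = 1.44e-04). Ikbkg, a regulatory subunit of the kinase that activates NF-kB, rose by 1.20 ± 0.19, with 1 of its 3 probes of opposite sign. As the mean of its probes it was 0.27 (adjusted p = 0.222), and the call was also lost against control 3 (adjusted p = 0.0614) and with slide as a block (adjusted p = 0.0922). Traf2 rose by 0.61 ± 0.15 (adjusted p = 0.0303), a call lost when any array except control 3 was left out (adjusted p between 0.064 and 0.147). The other 18 genes of this list were not called.

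Of 19 partners of ZBP1 and PKR and genes of the eIF2alpha pathway, 6 rose and 2 fell (median 0.54), beside 11.8% higher and 8.03% lower of all genes. Mlkl, the executor of necroptosis downstream of ZBP1 and RIPK3, stood at 2.79, 2.58 and 2.85 with IFN-beta, against 0.87, 0.77 and 1.31 in controls, and rose by 1.76 ± 0.20 (limma adjusted p = 0.00108). Ddit3 and Atf4, transcription factor genes of the integrated stress response that PKR and other kinases start, rose by 3.37 ± 0.17 and 1.21 ± 0.20. Against control 3 these values were 3.26 and 0.83, and for Atf4 the call was then lost (adjusted p = 0.0581), as it was with slide as a block (adjusted p = 0.0905). As the mean of its probes Ddit3 was at 2.12. Dicer1, which cuts double-stranded RNA, rose by 1.12 ± 0.19, with 1 of its 5 probes of opposite sign, and was at 0.29 as the mean of its probes (adjusted p = 0.224). Its call was also lost against control 3 (adjusted p = 0.0665) and with spike-in scaling (adjusted p = 0.0545).

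In the other direction, Dnajc3, which encodes an inhibitor of PKR, stood at 0.31, 0.32 and 0.47 with IFN-beta, against 0.97, 1.01 and 0.99 in controls. It fell by 0.63 on the log2 scale (limma adjusted p = 0.0257), a call lost when any array except control 3 was left out (adjusted p between 0.067 and 0.115). The second gene that fell was Adarb1, a relative of Adar, which is named here after its values were seen. It stood at -3.10, -4.17 and -3.91 with IFN-beta, against 1.95, 2.37 and -2.43 on controls 1, 2 and 3, bright on the controls that were also bright for fibroblast markers, whose part in this value was not tested. It was well above background on 1 of 3 IFN-beta arrays and all 3 controls. The fitted log2 fold change was -4.36 ± 1.15 (limma adjusted p = 0.0354), and dim IFN-beta values enter its size. The size rests on controls 1 and 2, since against control 3 the value was -1.29 (adjusted p = 0.124) and without control 3 -5.89, and the call was lost when any array except control 3 was left out (adjusted p between 0.0712 and 0.109).

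Of 18 negative regulators of RIG-I, MDA5 and MAVS, 4 rose and 1 fell (median 0.29), beside 11.8% higher and 8.03% lower of all genes. Usp18, which removes ISG15 from proteins and blunts interferon signalling, rose by 4.33 ± 0.27. Isg15, the ubiquitin-like protein itself, rose by 3.79 ± 0.25, and Nlrc5, known also as the activator of MHC class I genes, by 2.23 ± 0.22 (limma adjusted p from 9.79e-05 to 6.24e-04). Rnf122, a ubiquitin ligase gene, was well above background on no IFN-beta array and on all controls, so that its fall was at least 1.51-fold (adjusted p = 0.00717). After normexp background correction its sign was the opposite (0.21, adjusted p = 0.27), and the call was lost against control 3 (adjusted p = 0.0959) and with slide as a block (adjusted p = 0.108).

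**Figure D5:**
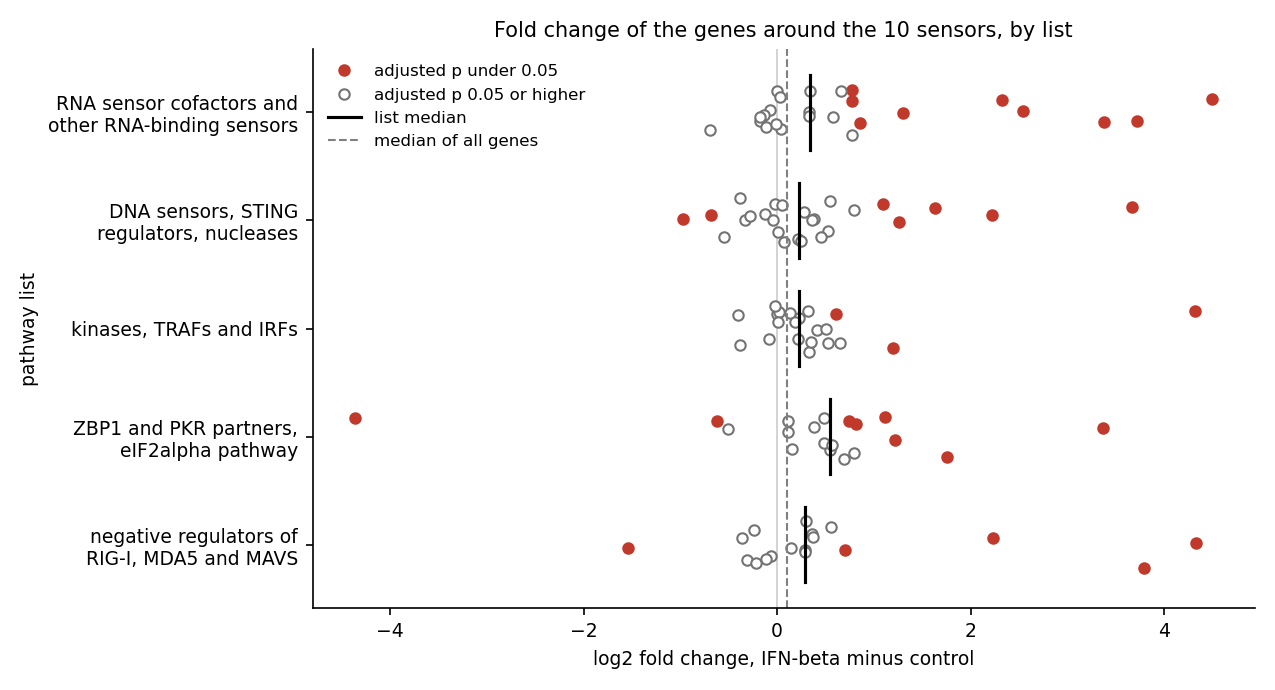
Log2 fold change (x axis, IFN-beta minus control) of the 109 tested genes of the 5 lists, filled red where the adjusted p was under 0.05. Black bars are list medians, from 0.23 to 0.54, and the dashed line is the median of all genes, 0.10.

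Among the genes compared, Tor3a, Rnf213 and Nlrc5 had the profile most like the mean of the 10 genes over the 6 arrays (Pearson r = 0.9999, 0.9998 and 0.9998). The genes compared were the 13325 outside the 10 that had a RefSeq-matched symbol and were above background on all arrays. Such likeness is mostly the step between the groups, since 1378 of the 13325 had r above 0.95. The log2 fold changes of Tor3a, Rnf213 and Nlrc5 were 2.14, 2.73 and 2.23.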

How the data were processed

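Expression was measured on 6 arrays, 3 per group. Per the file headers, the authors extracted spot intensities with Agilent Feature Extraction 12.0.3.1, with probe positions on mm9. The deposited value table holds log2 values whose processing beyond limma, named in the submitters' processing notes, is not given in the sources used here. It served as an alternative (r from 0.996 to 0.999 with the scanner values of the same array), its medians lay between 4.82 and 4.83, and its exact scale stays unknown.

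Control spots and spots marked as outliers (135 to 174 per array) were left out, and spots of a probe were averaged. No probe was saturated. Levels are log2 of the processed signal minus the array's 75th percentile, which was between 236 and 245 on IFN-beta arrays and between 305 and 549 on controls, and 49.0% to 63.9% of probes lay well above background. The number of arrays limits the precision. Tests covered the 29794 probes that all arrays of 1 or both groups measured well above background, and the probe with the highest mean stood for its gene (19500 genes). Probes were named through RefSeq accessions (32994) or a symbol known to RefSeq (10224), and 13387 kept the file's name.

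IFN-beta was compared with control by lmFit and eBayes in limma 3.58.1 (R 4.3.3, data.table version 1.17.8), with Benjamini-Hochberg adjustment over all genes or probes tested and a threshold of 0.05. For a named gene well above background on no array of 1 group, only a lower limit of the fold was given. Each array of that group was set to the higher of its own value and the lowest signal well above background. Adarb1, well above background on 1 of 3 IFN-beta arrays, was not covered by this rule. Promoter windows and figures were handled in Python 3.11.15 with pandas 2.3.3 and matplotlib 3.10.9.

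The 10 genes and the lists were chosen with earlier results of these data known. Named beside the 10 genes are, in each list, the 4 called genes with the lowest p and, of the called genes in the rarer direction, the one of lowest p, and the 3 genes with the most similar profile. Alternatives covered scaling, background correction, filters, probes, variance model, slide, replicate number, array weights, averaging of controls 1 and 2, and left-out arrays. Slide 1 held the controls and IFN-beta 1, slide 2 held IFN-beta 2 and 3.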

Additional observations from a re-analysis of the deposited data

How the results depend on the processing

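The direction of all 10 genes was the same in all 20 alternative settings, and 5 of the 9 called genes (Ddx58, Ifih1, Dhx58, Ddx60 and Zbp1) kept their call in each. Cgas and Adar lost theirs within slide 1 (adjusted p = 0.124 and 0.105), Eif2ak2 there and with slide as a block (adjusted p = 0.144 and 0.0579) and Sting1 in 11 settings. The count of called genes among the 10 was 5 within slide 1, where IFN-beta 1 alone faced the controls and the spread comes from the controls only, and from 7 to 10 otherwise, with 8 or 9 when 1 array was left out. It was 9 with the replicate number as a block. Deviations of same-numbered arrays correlated at 0.07, 0.02 and 0.07, so the numbers were not taken to pair the arrays, although each array correlated best with its own number. Among the named list genes the block ended the calls of Traf2, Dnajc3 and Lrrc8a (adjusted p = 0.0559, 0.0528 and 0.0659).

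Over all genes 3866 changed, against 1697 with no filter on dim probes, 1040 with slide as a block, 369 within slide 1, 12734 with array weights, 1993 with controls 1 and 2 averaged, 1864 without controls 1 and 2, and 1830 to 9390 without 1 array, the last without control 3. Of the changed genes 59.5% were higher, against 25.6% with spike-in scaling and 69.9% after normexp correction. Counts of called genes in the lists of RNA sensor cofactors, DNA sensors, downstream kinases, ZBP1 and PKR partners and negative regulators were 9, 7, 3, 8 and 5. They were 5, 3, 1, 3 and 3 with slide as a block, 2, 1, 1, 1 and 2 within slide 1, and 16, 18, 16, 18 and 13 with array weights. Without controls 1 and 2 the last 4 lists had 3, 1, 2 and 3. With no filter on dim probes the DNA sensors and the ZBP1 and PKR partners had 4 each, with controls 1 and 2 averaged the ZBP1 and PKR partners also had 4, and after normexp correction the kinases had 5. Leaving out 1 array gave 6 to 13, 4 to 13, 2 to 10, 4 to 15 and 4 to 11, the highest counts without control 3. List medians turned negative with spike-in scaling or against control 3 alone for DNA sensors, kinases and negative regulators. Rnf122 had the opposite sign after normexp correction (0.21, adjusted p = 0.27). The causes were not tested.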
